A study of Mus musculus with 6 samples.

Results

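Zymogen granule membrane and accessory genes were examined across the pancreas arrays of mice with and without Cftr. The members were listed by name: Sycn, Zg16, Gp2, Cuzd1, Klk1, Spink1, Dnase1, Rnase1, Tmed6 and Erp27. Of these 10 genes, 7 had at least 1 probe set annotated to a single gene symbol, giving 9 of the 12488 probe sets on the array. Gp2, Tmed6 and Erp27 were not analysed here, since no probe set with a single symbol matched them. Probe sets with several symbols were not searched. Of the 9 probe sets, 6 (of 6 genes) were bright enough to be among the 7739 that were tested.

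The 6 one-colour oligonucleotide arrays each measured total pancreatic RNA from a single male mouse. The 3 control mice were CFTR+/+ and aged 57, 56 and 57 days in replicates 1, 2 and 3; the 3 CF mice were CFTR-/- and aged 57, 56 and 58 days. All 6 were gastrin+/-, so the controls also carried a single working allele of the gene for the hormone gastrin. All had a background of 95% black6 and 5% 129Sv, and all received the diet Peptamen from the age of 10 days, given against obstruction of the gut. Cftr encodes the chloride and bicarbonate channel that is lost in cystic fibrosis, and the comparison asks which pancreatic transcripts differ without it. Only for control replicate 1 do the labels say that the whole organ was used.

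The brightest of 3 Cftr probe sets read 318, 223 and 338.5 on the control arrays against 466.9, 313.8 and 364.2 on those labelled CF, with overlap (log2 difference 0.38 ± 0.29, adjusted p = 0.82), and the other two were under the floor throughout. The labels do not name the knockout allele, and it is unknown whether these probes fall inside the sequence it removes, so the signal does not check the genotype labels, and the groups are those of the labels throughout.

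Acinar cells of the exocrine pancreas pack digestive enzymes into zymogen granules, which fuse with the apical membrane on stimulation and empty into the duct lumen. Besides the enzymes, the granule carries proteins attached to the inner face of its membrane, inhibitors that guard against early activation, and nucleases and kallikrein that are secreted together with the enzymes. Duct cells then add the bicarbonate-rich fluid, for which CFTR is needed, that dissolves and carries the secretion.

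All tested members differed between CF and control by less than the test could call. With limma across 7739 probe sets, 0 of 6 members passed an adjusted p of 0.05 and 0 of 6 had an unadjusted p under 0.05, where 0.0646% and 7.38% of all tested probe sets did. Sycn, Zg16, Rnase1 and Spink1 had lower means in CF, and Cuzd1 and Klk1 higher ones; the direction of Rnase1 and of Spink1 turned when single arrays were left out. The median log2 difference over the 6 members was -0.14, beside 0.00079 over all tested probe sets, of which 49.9% were lower in CF, and -0.06 over the 50 brightest probe sets, of which 33 were lower. The median of the members turned to 0.03 without control replicate 2 and was -0.02 without CF replicate 1, so its direction rests on single arrays. In 0 of the 6 members did the 3 CF values lie apart from the 3 control values, while 5.62% of all tested probe sets lay wholly lower in CF and 7.37% wholly higher. Intensities are given as deposited. Log2 differences are of intensities raised to a floor of 47.6, with CF minus control as their direction.

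**Figure D1:**
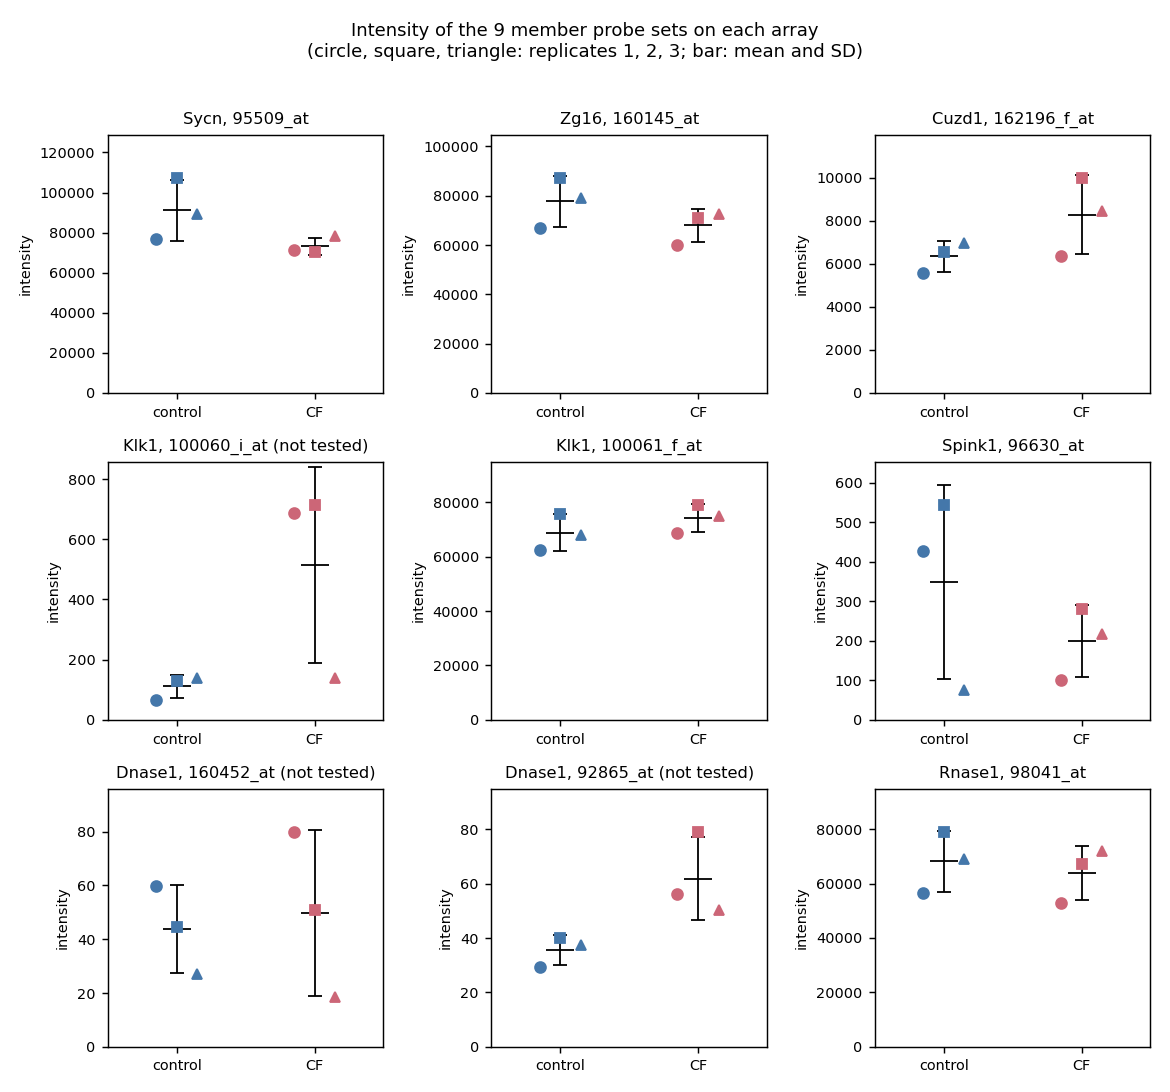
Deposited intensity (linear axes from 0) of each of the 9 member probe sets on the 3 control arrays (blue) and the 3 CF arrays (red), with circles, squares and triangles for replicates 1, 2 and 3 and bars for the mean and SD. The Sycn values of CF all lie at or below 78065, while 1 control value, 76817, lies under that; Cuzd1 shows the reverse order of means, and the 2 Dnase1 probe sets stay under 80.

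The promoter windows of the members are shown for Sycn and Cuzd1, which had the lowest and highest differences among the brighter members, and for Klk1 with its near relatives next to it. RefSeq of build GRCm38.p6 gave a window for 7 of the 10 genes, Dnase1 with 2, making 8 windows of 300 bases each. Of the 10 genes, 5 (Sycn, Zg16, Gp2, Cuzd1 and Klk1) lie on chromosome 7. The 250 bases before the start of each gene are printed 5′ to 3′ on the strand of the gene, with each E-box (CANNTG) in capitals. E-boxes and the TC-box TTTCCC together make up the site of PTF1, the transcription factor complex of acinar cells.

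Sycn, chr7:28540635-28540884, plus strand: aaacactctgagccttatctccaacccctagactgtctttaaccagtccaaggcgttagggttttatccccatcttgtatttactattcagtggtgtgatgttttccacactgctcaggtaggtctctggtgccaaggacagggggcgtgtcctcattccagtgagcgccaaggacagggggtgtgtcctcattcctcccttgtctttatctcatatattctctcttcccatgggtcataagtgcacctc

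Cuzd1, chr7:131322293-131322542, minus strand: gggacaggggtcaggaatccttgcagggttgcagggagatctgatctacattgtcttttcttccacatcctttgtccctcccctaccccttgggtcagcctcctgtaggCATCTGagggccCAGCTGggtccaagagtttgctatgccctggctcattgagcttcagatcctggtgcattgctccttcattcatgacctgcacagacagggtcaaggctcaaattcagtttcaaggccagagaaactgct

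Klk1, chr7:44225110-44225359, plus strand: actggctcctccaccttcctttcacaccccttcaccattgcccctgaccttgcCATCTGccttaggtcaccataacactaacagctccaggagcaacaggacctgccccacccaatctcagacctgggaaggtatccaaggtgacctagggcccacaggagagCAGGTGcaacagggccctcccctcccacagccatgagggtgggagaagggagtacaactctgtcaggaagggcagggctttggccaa

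On both strands, 6 of the 8 windows held an E-box, as did 72.3% of all 32851 RefSeq promoter windows of the same length. The Sycn and Rnase1 windows held 0. The TC-box TTTCCC was found in 0 of the 8 windows and in 25.2% of all windows. Only these exact letters were searched, so the count does not show that this part of the PTF1 site is missing in other forms. In Cuzd1 the E-boxes CATCTG and CAGCTG began at -141 and -129 relative to the start, and in Klk1 CATCTG and CAGGTG began at -197 and -87, with a further CATCTG at the start itself, after the printed bases. These matches describe the letters of the windows only.

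Syncollin, encoded by Sycn (probe set 95509_at), sits on the luminal side of the granule membrane and takes part in granule exocytosis. Control replicates 1, 2 and 3 gave intensities of 76817, 107318 and 89258, and CF replicates 1, 2 and 3 gave 71326, 70232 and 78065. Control replicates 2 and 3 lay above every CF array, and control replicate 1 lay between CF replicates 1 and 3. The means were 91131 ± 15336 in control and 73208 ± 4242 in CF (SD, n = 3 per group), a fold of 0.81 (log2 difference -0.30 ± 0.17 SE, 95% interval -0.68 to 0.07, adjusted p = 0.74). Sycn was lower in CF in 3 of 3 pairs of arrays with the same title suffix, by -0.11, -0.61 and -0.19 on the log2 scale. Without control replicate 2 the difference was -0.18, and that array also had the highest ratio of 3' to 5' signal for Gapdh, a sign of RNA quality (1.45, against 0.72 to 0.87 on the other 5 arrays). For Actb the ratio of the same array, 2.16, was close to that of CF replicate 2, 2.14, and the other 4 arrays had 1.74 to 1.94. The part of these ratios in the Sycn difference was not tested.

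Zg16 (160145_at) encodes a lectin-like protein of the inner granule membrane that helps to hold the condensed enzymes there. It measured 66885, 87266 and 79146 in the control replicates and 60178, 71026 and 72750 in CF. The groups overlapped through control replicate 1, which lay below CF replicates 2 and 3. Group means were 77766 ± 10260 and 67985 ± 6816 (log2 difference -0.19 ± 0.16, 95% interval -0.56 to 0.18, adjusted p = 0.84). As with Sycn, the CF array was the lower in 3 of 3 pairs, by -0.15, -0.30 and -0.12. The difference was -0.10 without control replicate 2 or CF replicate 1, and -0.29 without control replicate 1.

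Cuzd1 (162196_f_at) encodes a CUB and zona pellucida-like domain protein of the granule membrane, and had the highest difference of the 6 tested members. Its probe set has the ending _f_at, for probes that can match several members of a sequence family. Whether it also reads other genes was not measured. The controls read 5555, 6557 and 6945, and the CF arrays 6347, 9994 and 8475. CF replicates 2 and 3 exceeded all controls, and CF replicate 1 lay between control replicates 1 and 2. Means of 6352 ± 717 and 8272 ± 1832 gave a fold of 1.29 (log2 difference 0.36 ± 0.19, 95% interval -0.07 to 0.80, adjusted p = 0.73). Without CF replicate 2 the difference was 0.21, and without CF replicate 1 it was 0.54. The CF array was higher in 3 of 3 pairs, by 0.19, 0.61 and 0.29. With the title suffix as a replicate block, the interval of Cuzd1 was 0.06 to 0.67 and its unadjusted p was 0.026, though the adjusted p was 0.37; it was then 1 of 6 members with an unadjusted p under 0.05, where 11.7% of all tested probe sets had one. Some listed markers of duct cells also read higher in CF. Of 9 listed genes, 7 were measured and 6 tested, with a median log2 difference of 0.64 and 0 past the threshold. All 6 had a higher mean in CF. Of them, 4 lay wholly higher, beside 7.37% of all tested probe sets. Elf3 differed by 0.92 ± 0.16, Krt18 by 0.62 ± 0.16, Cldn4 by 1.58 ± 0.54 and Epcam by 0.66 ± 0.29. Cldn4 was dim, at 59.2, 172.3 and 60.8 in control and 274.9, 325.2 and 185.3 in CF. Its control replicates 1 and 3 read near the floor of 47.6. Krt19 differed by 0.04 and Muc1 by 0.13, both with overlap, and Krt7 was too dim to be tested. Muc1 makes up most of the summed intensity (12828 to 17070 in control, 16729 to 19978 in CF). The mean log2 intensity of the 7 was 8.93 to 9.09 in control and 9.54 to 9.59 in CF. Their part in the Cuzd1 difference was not tested.

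**Figure D2:**
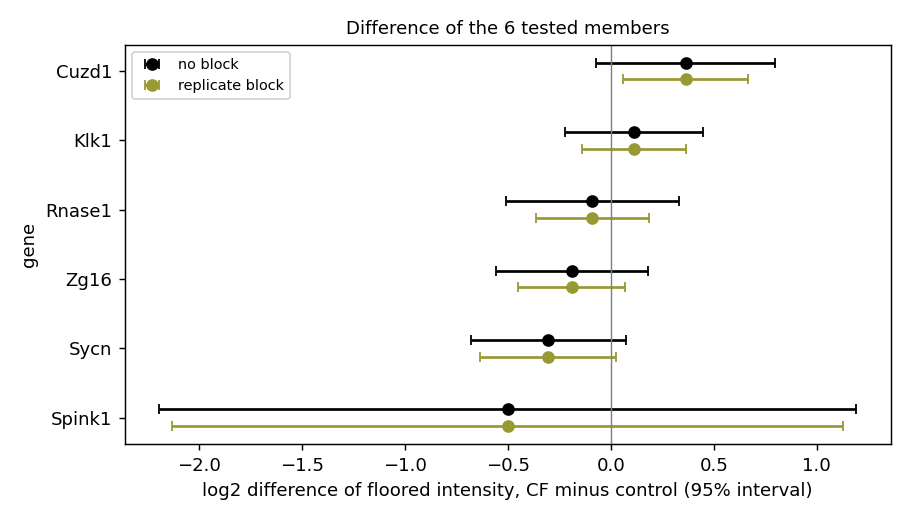
Log2 difference of floored intensity, CF minus control, with its 95% interval, for the 6 tested members without a block (black) and with the title suffix as a replicate block (olive). Every interval without the block covers 0; with the block that of Cuzd1 runs from 0.06 to 0.67, and Spink1 has the widest interval in either fit.

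Klk1, the tissue kallikrein, is a serine protease that releases kinins and is secreted with the pancreatic enzymes. Its bright probe set (100061_f_at) measured 62525, 75852 and 68091 in the control replicates and 68826, 79062 and 75128 in CF. Values interleaved, with control replicate 2 above CF replicates 1 and 3. The means were 68822 ± 6693 and 74339 ± 5164 (log2 difference 0.11 ± 0.15, 95% interval -0.22 to 0.45, adjusted p = 0.91), and the CF array was higher in 3 of 3 pairs. Leaving out single arrays gave 0.05 to 0.19. Its dim probe set (100060_i_at) gave another picture, at 67.5, 128.7 and 139.5 in control and 688.7, 714.5 and 138.4 in CF. CF replicates 1 and 2 stood well above the other arrays, and CF replicate 3 lay just under control replicate 3. Only 2 of 6 arrays exceeded the filter of 140.2 on this probe set, so it was not tested; fitted without the filter, its log2 difference was 1.94 ± 0.79 (95% interval -0.10 to 3.97, adjusted p = 0.82). That fit called 0 probe sets in all.

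In the RefSeq order of protein-coding genes, Klk1 follows directly on Klk1b5, Klk1b4, Klk1b3, Klk1b24 and Klk1b16, mouse kallikreins of similar sequence. The array held 10 probe sets of 8 Klk1b genes with a single symbol, all tested, and 8 of the 10 had names ending in _f_at, a suffix for probe sets whose probes can match several members of a sequence family. Of these 10, 0 passed and 0 had groups that lay apart; 7 were higher in CF and 3 lower, with a median log2 difference of 0.26. Klk1b1 measured 90370 ± 12479 in control and 86512 ± 7805 in CF (log2 difference -0.06 ± 0.16). Klk1b11 had the lowest adjusted p, 0.67, at 168.6, 1182.5 and 300.2 in control and 1190.1, 1029.6 and 818.4 in CF (1.36 ± 0.60). Control replicate 2 of Klk1b11 lay within the range of the CF arrays, and control replicates 1 and 3 read below them. How far each of these probe sets reads its relatives was not measured, so the kallikrein values are uncertain as to gene. Kallikreins are also made in salivary gland and kidney; of 3 measured markers of those tissues, Smr3a and Prol1 were under the floor on all 6 arrays, and Umod read 45.4 to 128.6.

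**Figure D3:**
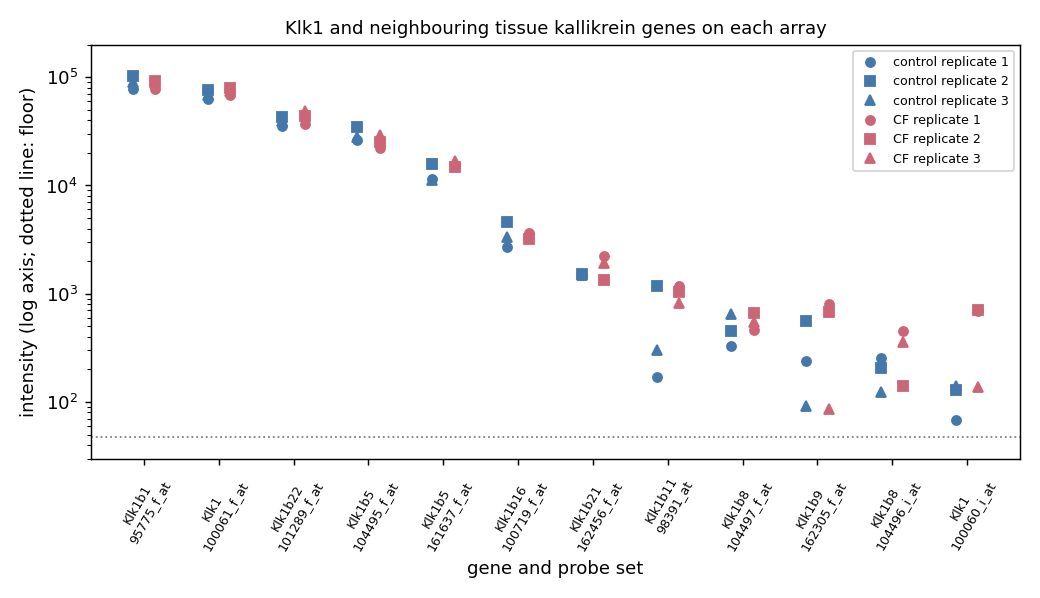
Intensity (log axis) of the 2 Klk1 and 10 Klk1b probe sets on each array, controls in blue to the left and CF in red to the right of each position, with a dotted line at the floor of 47.6. The brighter probe sets show control and CF values intermixed, and the dim Klk1 probe set has 2 CF arrays at 688.7 and 714.5 while the third reads 138.4.

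Spink1, known as Spink3 in older mouse annotation, encodes the pancreatic secretory trypsin inhibitor, which binds trypsin that becomes active too early. Its single probe set (96630_at) read 427.3, 544 and 74.7 in the control replicates and 101, 280.7 and 216 in CF. Control replicate 3 was the lowest of all arrays and control replicates 1 and 2 the highest, so the controls spanned the CF values. The means were 349 ± 244 and 199 ± 91 (log2 difference -0.50 ± 0.74, 95% interval -2.19 to 1.19, adjusted p = 0.92). Without control replicate 3 the difference was -1.40, and without control replicate 2 it was 0.03. The interval covers more than a 4-fold fall as well as a rise, so these arrays bound the inhibitor least of the 6 members.

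The nucleases digest the nucleic acids of food. Rnase1 (98041_at), the pancreatic ribonuclease, measured 56539, 78980 and 68929 in the control replicates and 52933, 67131 and 71848 in CF. The 2 groups covered nearly the same span, with means of 68149 ± 11241 and 63971 ± 9846 (log2 difference -0.09 ± 0.18, 95% interval -0.51 to 0.33, adjusted p = 0.95). The CF array was lower in 2 of 3 pairs, and the difference turned to 0.02 without control replicate 2 and to 0.04 without CF replicate 1. Dnase1, the secreted endonuclease for DNA, was dim on both probe sets. One (160452_at) read 59.9, 44.7 and 27.2 in control and 79.9, 51 and 18.4 in CF, and the groups overlapped. The other (92865_at) read 29.3, 40 and 37.3 in control and 56.1, 79.1 and 50.3 in CF, so that all controls lay under the floor and all CF arrays above it. Neither was tested; fitted without the filter, their log2 differences were 0.17 ± 0.23 and 0.35 ± 0.18 (adjusted p = 0.93 and 0.84). For the first, control replicates 2 and 3 and CF replicate 3 entered at the floor, above their own readings. For the second, all controls did. Neither difference is thus a fold of the signal.

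Of the 5 tested relatives of the nucleases, Ang, Rnase4 and Dnase1l3 had higher means in CF, and Ang2 (-0.07 ± 0.25) and Dnase1l1 (-0.16 ± 0.64) lower ones; 0 passed the threshold. Ang, the ribonuclease angiogenin, measured 2482, 2263 and 2894 in the control replicates and 5218, 4015 and 4461 in CF (means 2546 ± 321 and 4564 ± 608; log2 difference 0.84 ± 0.17, adjusted p = 0.16). All 3 CF values were above all 3 control values. Its probe set is of the _f_at kind, so other angiogenin genes may contribute to the reading. Rnase4, a ribonuclease, read 3683, 2011 and 4499 in control and 6572, 3669 and 5776 in CF (0.69 ± 0.32, adjusted p = 0.69), with 1 CF value inside the control range. Dnase1l3, an endonuclease related to Dnase1, read 55, 130.9 and 57.7 in control and 199.4, 198.6 and 227.6 in CF (1.48 ± 0.51, adjusted p = 0.56), with the CF values apart from the controls. Over the whole list of relatives, 17 of 22 measured genes were tested, 11 higher and 6 lower in CF, with a median of 0.14. Of these, 0 passed and 2 (Ang and Dnase1l3) lay wholly higher in CF, beside 7.37% of all tested probe sets. Dmbt1, another relative through its CUB and zona pellucida domains, read 61599 to 75794 in control and 70426 to 86198 in CF. The groups overlapped, with a log2 difference of 0.21 ± 0.16 (adjusted p = 0.82).

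Sycn, Zg16, Klk1 and Rnase1 read near the top of the arrays. The array maxima ran from 92020 to 135426, and on every array these 4 probe sets ranked between 8 and 27 by intensity. How far differences were compressed at that height was not tested, so small differences there do not show equal transcript levels. After the group means were taken away, the log2 values of Zg16 and Rnase1 correlated at 0.99, those of Zg16 and Klk1 at 0.94, and those of Sycn and Zg16 at 0.83 over the 6 arrays. Spink1 correlated at 0.14 to 0.39 with the others. These are descriptions, since the points share their array and its scaling. In these bulk samples, fewer cells of a type and less RNA per cell cannot be told apart.

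The other genes of the granule and of the route to it were taken from lists, each counted by its brightest probe set per gene. Over all tested probe sets, 5.62% lay wholly lower and 7.37% wholly higher in CF. The genes below that lay apart are to be read beside those shares. Among granule enzymes, the cargo with which the members are packed, 11 of 25 listed genes were measured and tested; 10 were lower in CF and 1 higher, 0 passed, and the median log2 difference was -0.15. The largest was that of the elastase gene Cela1, at 80426, 112064 and 90622 in control and 71551, 88712 and 76601 in CF (-0.25 ± 0.17, adjusted p = 0.81). Control replicate 2 was the highest array for Cela1, as it was for Sycn, Zg16 and Rnase1. Cela2a, another elastase gene, differed by -0.24 ± 0.17 and Cel, the bile salt-stimulated lipase, by -0.17 ± 0.16. Ctrb1, a chymotrypsinogen, lay wholly lower in CF (-0.24 ± 0.17, adjusted p = 0.81), and the others overlapped between the groups. The enzyme median and that of the members were close, but the difference between the lists was not tested.

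Genes for granule traffic and exocytosis pointed the other way in number. Of 18 measured, 14 were tested, 11 higher and 3 lower in CF, with 0 past the threshold and a median of 0.15. Vamp8, a SNARE of the granule membrane, measured 4441, 5959 and 5598 in control and 6457, 6349 and 5748 in CF (0.22 ± 0.16, adjusted p = 0.81). Lamp1, a membrane protein of lysosomes, lay wholly lower in CF at 6717, 7394 and 8158 against 5522, 5831 and 6655 (-0.31 ± 0.15, adjusted p = 0.70). Dnajc5, a chaperone of vesicle exocytosis, lay wholly higher (0.35 ± 0.25, adjusted p = 0.82), and Stx3, a SNARE of the apical route, differed by 1.18 ± 0.63 with overlap (adjusted p = 0.73). Stx3 was dim, at 192.6, 43.1 and 66 in control and 130.1, 277.8 and 193.6 in CF. Its control replicate 2 was raised to the floor of 47.6, so the difference depends on the floor. Rab3d, a small GTPase on mature granules, differed by 0.17 ± 0.15.

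Tmed6 and Erp27 belong to the early secretory route, the former to the p24 cargo receptors between endoplasmic reticulum and Golgi and the latter to the protein disulphide isomerase family. In their place, their measured partners were counted. Of 17 measured p24 and early traffic genes, 16 were tested, 9 higher and 7 lower, with 0 past the threshold and a median of 0.07. Tmed3 differed by 0.20 ± 0.17, Tmed7 by 0.27 ± 0.18, Tmed9 by 0.09 ± 0.30 and Tmed4 by -0.11 ± 0.17. Sar1b, a GTPase of COPII coat assembly, lay wholly higher in CF at 273.6, 191.1 and 312.9 against 442.7, 384.1 and 531.2 (0.82 ± 0.29, adjusted p = 0.57). Copb2, a COPI coat subunit, read 5843, 6548 and 6677 in control and 3906, 3137 and 6497 in CF, where CF replicate 3 lay within the control range (-0.56 ± 0.25, adjusted p = 0.67). The COPII coat genes Sec23b and Sec23a differed in opposite directions, by 0.35 ± 0.18 and -0.55 ± 0.35.

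Of 16 measured genes for redox and folding in the endoplasmic reticulum, 14 were tested, 9 higher and 5 lower in CF; 0 passed, and the median was 0.10. Ero1b, the oxidase that recharges disulphide isomerases in secretory cells of the pancreas, lay wholly lower at 3941, 4943 and 4127 in control against 3808, 2962 and 3071 in CF (-0.40 ± 0.17, adjusted p = 0.66). Canx, the lectin chaperone calnexin, lay wholly higher (0.30 ± 0.16, adjusted p = 0.74), and Pdia3, the isomerase that works with it, differed by 0.42 ± 0.27 with overlap. Pdia5, another isomerase, read 236.3, 205.8 and 144.8 in control and 172.1, 128.8 and 61.1 in CF (-0.79 ± 0.51, adjusted p = 0.79). Of the acinar transcription factors, 6 of 7 measured genes were tested, 5 higher and 1 lower, with 0 passed and a median of 0.21. Xbp1, which drives expansion of the secretory apparatus, differed by 0.36 ± 0.21 and Nr5a2 by 0.26 ± 0.21 (adjusted p = 0.76 and 0.83). Gata4 differed by 0.19 ± 0.17 and Foxa2 by -0.90 ± 0.86. Over the 78 tested genes of these 5 lists and the list of relatives, the lowest adjusted p was that of Ang, 0.16.

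**Figure D4:**
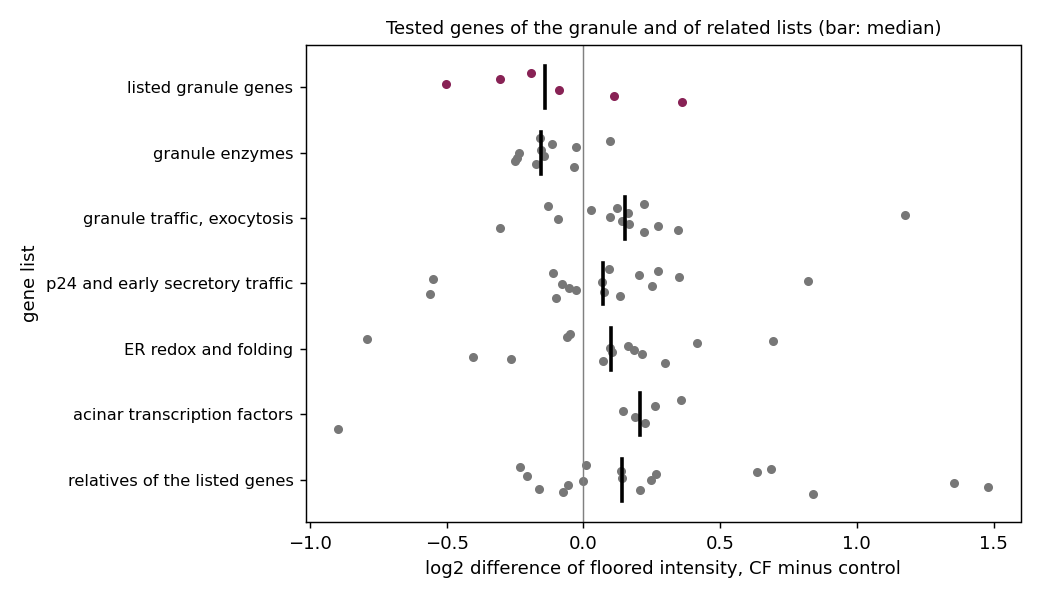
Log2 difference of floored intensity, CF minus control, of each tested gene in the list of granule members and in 6 related lists, 1 point per gene with a bar at the median. Medians lie at -0.14 for the members and -0.15 for the granule enzymes, and between 0.07 and 0.21 for the other lists; 0 points passed the threshold.

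The labelled tissue was checked against markers. Of 7 acinar markers 3 were measured, with a sum of 269739 to 372339 in control and 255259 to 280270 in CF. Markers of other cells that a pancreas sample can hold moved with the groups or between arrays. The summed intensity of 6 macrophage markers was 3068 to 5122 in control and 2054 to 2746 in CF, that of 8 lymphocyte markers 5183 to 10657 and 2832 to 6385, and that of 5 adipocyte markers 5421 to 13694 and 4306 to 5706. For 6 stellate cell markers it was 11057 to 16226 and 9168 to 12543, while their mean log2 intensity lay apart, at 10.24 to 11.04 in control and 9.63 to 10.00 in CF. Of those 6, 5 had lower means in CF, 2 without overlap, and Acta2, smooth muscle actin, had the lowest adjusted p of the marker lists (-2.82 ± 0.44, adjusted p = 0.082). Among the tested macrophage, lymphocyte and adipocyte markers, 5 of 5, 7 of 7 and 5 of 5 had lower means in CF. Of these, 2, 2 and 0 were without overlap, and 0 passed. Over all tested probe sets, 5.62% lay wholly lower in CF. The 6 islet markers summed to 18951, 77346 and 53059 in control and to 22142, 35598 and 59297 in CF, lowest in replicate 1 of both groups. The part of these cells in the members' values was not tested. Array medians were 207.8 to 234.4, and 3 arrays per group limit the precision of every value.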

How the data were processed

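Total RNA from the pancreas, prepared with TRIzol per the labels, was hybridised to 1 array per mouse. The deposited values are linear intensities per probe set whose summarising and scaling method the labels do not name. The 2% trimmed means of the arrays lie between 500.27 and 500.295, so each array was scaled before deposit. Of 12488 probe sets, 10855 carry 1 gene symbol, 396 several and 1237 none, and 10839 matched RefSeq (GRCm38.p6). After 66 control probe sets were left out, probe sets above 140.2 (the 40th percentile) on at least 3 of 6 arrays were kept, values under 47.6 (the 20th percentile) were raised to it, and log2 values were fitted with limma 3.58.1 (R 4.3.3; eBayes with an intensity trend), adjusted by Benjamini-Hochberg over 7739 probe sets at 0.05. The script was tested on simulated data. The array titles hold no replicate numbers. Replicates were numbered here by the title suffix: none for replicate 1, B for replicate 2 and P for replicate 3, in both groups. With group means removed, same-suffix arrays correlated at 0.23 to 0.26 and others at -0.18 to -0.05, and the suffix was taken to pair them. Removing the means fixes part of this contrast in advance, since the deviations within a group then cancel. No label states a day or litter that the pairs shared. The mice are separate animals per the labels.

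All probe sets of the members were named; of each related list, the brightest probe set of a gene was counted and up to 4 genes with the smallest p were named. Rab3d, the Tmed genes, Dmbt1, Klk1b1, Ang2, Dnase1l1 and the markers of other cells were named beyond that rule after their values were seen. The members and lists were chosen with earlier results of these data known. Promoter sequences are those of RefSeq. Alternatives covered scaling, floor, filter, variance fit, array weights, the replicate block and each array left out.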

Additional observations from a re-analysis of the deposited data

How the results depend on the processing

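Under 18 alternative settings and 1 more added after seeing the data, 0 members passed the threshold, an adjusted p of 0.1 included. The median over the members, -0.14 in the main setting, ranged from -0.30 to 0.03 and turned in direction without control replicate 2. The SD over arrays of the members' median deviation was 0.17. With the replicate block Cuzd1 stayed at 0.36 and 10 probe sets were called over the whole array, against 5 without it. Whole-array calls also differed with the floor at the 40th percentile (10), median centring (8), array weights (12), no intensity trend (3), no filter (0), and without control replicate 2 (11), CF replicate 1 (1), CF replicate 2 (1) or CF replicate 3 (8). Spink1 ranged from -1.398 to 0.03426 as each array was left out, turning to 0.03426 without control replicate 2. Rnase1 ranged from -0.2179 to 0.04069, turning to 0.02319 without control replicate 2 and to 0.04069 without CF replicate 1. Klk1 turned to -0.04412 with the added centring on the 50 brightest other probe sets, which shifted the median of all genes to -0.16. That centring lowers every difference by the 0.16 by which the reference was higher in CF, and the turn of Klk1 follows from it. The cause of the turns of Spink1 and Rnase1 was not tested. Sycn, Zg16 and Cuzd1 kept their direction in all 18 alternatives run for each. Spink1 had no value with the filter at the 60th percentile. Limits: 3 mice per group, dim Spink1 and Dnase1 signals, and 4 members read near the top of the range.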

Other observations

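On a scale chosen after the values were seen, relative to the median of the 50 brightest other probe sets on its array, Sycn was at 0.88, 1.12 and 0.83 in control and at 0.70, 0.27 and 0.47 in CF (log2). Sycn, Zg16 and Rnase1 lay wholly lower in CF on it, by -0.46, -0.35 and -0.25, and Cuzd1 wholly higher, by 0.20. Klk1 differed by -0.04 and Spink1 by -0.66, with overlap. The scale itself moves all probe sets down by about the 0.16 by which the reference was higher in CF. As deposited, 33 of the 50 brightest probe sets were lower in CF, but that set includes bright members, which the reference leaves out. Of the 50 reference probe sets, 19 also lay wholly lower and 4 wholly higher on this scale, so these separations are a description and are not particular to the members.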
